A study of Chlorocebus sabaeus with 18 samples.

Results

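In COS-7 cells, 100 genes were higher in both groups with TRA2A knocked down than in each of the 3 other measured groups. They were chosen from group means of the authors' normalized values, which are reads summed over a gene's exon bins and scaled by 1 factor per library. A gene was taken where the lower of the CGG_siTRA and siTRA means was 50 or more and at least 25% above the highest of the CGG, GFP_TRA and CTL means. The 100 members stand among 52560 single gene IDs, of which 12244 had a lower knockdown mean of 50 or more, so that members made up 0.817% of these. The excess in knockdown cells is therefore what chose the members and is described below without a test.

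COS-7 is a fibroblast-like kidney line of the African green monkey that carries the SV40 large T antigen. The groups, of 3 samples each, were CGG_siTRA (60 CGG repeats in the FMR1 leader plus knockdown of TRA2A), siTRA (knockdown alone), CGG (the repeat alone), GFP_TRA (overexpressed TRA2A) and CTL (control cells). A further group, CGG_TRA (repeat plus overexpression), entered only the authors' splicing tables. No empty-vector or control-siRNA group is named, so an effect of lower TRA2A, of the repeat or of overexpressed TRA2A and any other effect of the siRNA or of transfection cannot be told apart. No label states that a group's samples came from separate cultures, and the p-values therefore speak only of how far these samples scattered. The titles of 2 CGG_siTRA samples name different rounds, no other title names one, and the columns do not show which library came from which round, so rounds and groups cannot be told apart.

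TRA2A is a splicing factor with arginine- and serine-rich domains that binds purine-rich sequences in exons and promotes their inclusion. An expanded CGG repeat in the leader of FMR1 underlies the tremor and ataxia syndrome FXTAS, in which the repeat RNA forms nuclear inclusions and binds RNA-binding proteins. The series title names recruitment of TRA2A in this disease. Knockdown cells with and without the repeat thus allow transcripts to be compared with TRA2A lowered in either setting.

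The totals over exon bins were between 123599617 and 207475255 reads per library, where 1 read can add to more than 1 bin. The 3 libraries of a group are lettered a, b and c, since the column names do not match the numbering in the titles. Genes carry human Ensembl IDs on GRCh38.p10, to which the monkey reads were aligned, and the sources used here pair no ID with a name. Members are therefore given by position, with their rank by ratio (the lower knockdown mean over the highest other mean), and no role is given to them. The gene ENSG00000164548.10 at chr7:23504780-23532041 is taken as TRA2A, because among single IDs with a CTL mean of 50 or more it alone was at least 2-fold lower in siTRA than CTL, 2-fold lower in CGG_siTRA than CGG and 2-fold higher in GFP_TRA than CTL. Being found by its behaviour, it is no independent check of the labels. Its normalized value was 4020, 4396 and 4408 in CGG_siTRA, 3709, 4916 and 3117 in siTRA, 17032, 15675 and 16050 in CGG, 204942, 187106 and 221793 in GFP_TRA, and 17143, 17234 and 16912 in CTL. Knockdown thus left 26.3% of the CGG mean in CGG_siTRA and 22.9% of the CTL mean in siTRA.

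The members' excess was modest in size. The ratio ran between 1.252 and 1.96 with a median of 1.35, and 15 members reached 1.5, 58 lay between 1.3 and 1.5, and 27 lay under 1.3. In 68 of the 100 members each of the 6 knockdown libraries lay above all 9 others, where 1.42% of all genes of 50 or more did so. That count is read as a description, since the rule used the same contrast. Among the members, it held for 42 of 45 with a lower knockdown mean of 1000 or more, 20 of 37 between 100 and 1000, and 6 of 18 under 100. The share of all genes at each level is not given here, so these counts too are a description. The median lower knockdown mean was 655 in the members and 2650 in all genes of 50 or more.

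**Figure D1:**
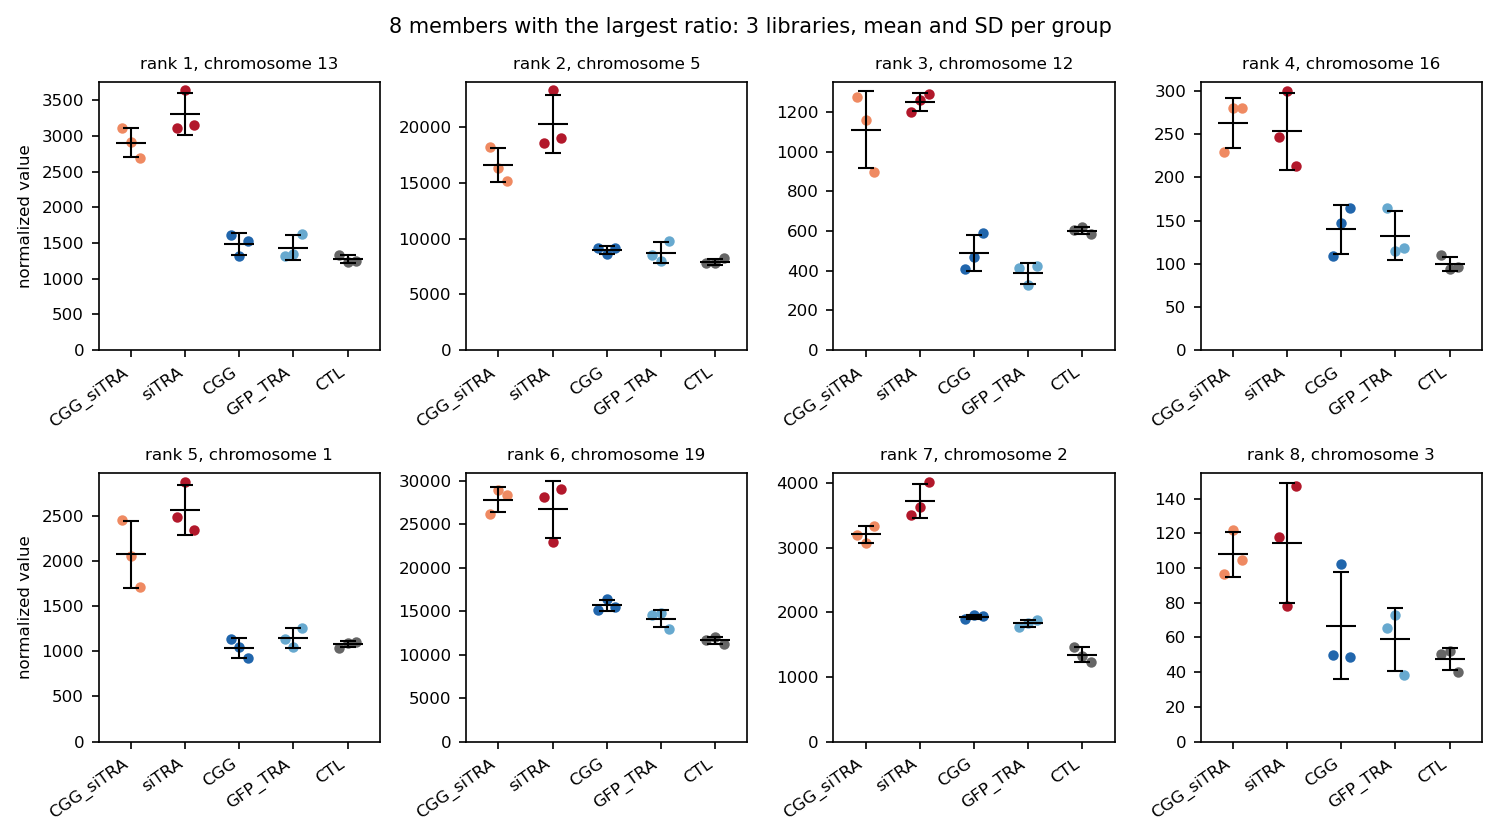
Normalized value (linear axis from 0) of the 8 members with the largest ratio, in the 3 libraries of each group. Points are libraries and bars are mean and SD. In ranks 1 to 7 the knockdown libraries lie above all others, and in rank 8 they overlap with 1 CGG library at 102.

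The largest ratio, 1.96, belonged to the gene ENSG00000188811.13 at chr13:39038318-39050109. It lay at 3115, 2914 and 2696 in CGG_siTRA, 3109, 3642 and 3156 in siTRA, 1606, 1319 and 1529.7 in CGG, 1317, 1348 and 1632 in GFP_TRA, and 1339, 1231 and 1253 in CTL. No knockdown library came near the others: the lowest was 1.65 times the highest library of the other groups. Rank 2, ENSG00000172795.15 at chr5:112976702-113020970, was among the most abundant, at 18248, 16366 and 15207 in CGG_siTRA and 18599.9, 23344 and 19019.6 in siTRA. The same gene held 9184, 8594 and 9211 in CGG, 8506, 7963 and 9809 in GFP_TRA, and 7775, 7786 and 8267 in CTL. Its groups did not overlap either, with library b of siTRA the highest of all.

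Rank 3, at chr12:65824131-65966295, averaged 1111 ± 195 in CGG_siTRA, 1251 ± 47.6 in siTRA, 489.6 ± 91.0 in CGG, 387 ± 51.9 in GFP_TRA and 602 ± 17.4 in CTL (SD, n = 3 each). It differs from the preceding pair in that CTL was its highest group outside the knockdowns. Rank 4, at chr16:88427471-88440757, averaged 263 ± 29.3 in CGG_siTRA, 253 ± 44.3 in siTRA, 140.0 ± 28.3 in CGG, 133 ± 27.9 in GFP_TRA and 99.7 ± 8.56 in CTL (SD, n = 3 each). Rank 5, at chr1:227563543-227662462, averaged 2077 ± 370 in CGG_siTRA and 2573 ± 277 in siTRA, against 1039 ± 109 in CGG, 1152 ± 109 in GFP_TRA and 1081 ± 34.6 in CTL (SD, n = 3 each). In ranks 3 to 5 the knockdown libraries stayed above every other library.

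The most abundant member, rank 6 at chr19:2037465-2051244, lay at 26212, 28967 and 28342 in CGG_siTRA and 28139.5, 22995 and 29014 in siTRA. Its other libraries were graded, with 15115, 16423 and 15477 in CGG, 14585, 14819 and 12988 in GFP_TRA, and 11711, 12045 and 11178 in CTL. Rank 7, at chr2:189560579-189583420, showed the same order of groups outside the knockdowns. It averaged 3212 ± 132 in CGG_siTRA, 3724 ± 266 in siTRA, 1934 ± 31.1 in CGG, 1834 ± 51.8 in GFP_TRA and 1343 ± 118 in CTL (SD, n = 3 each).

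Some members entered on few reads and wide spreads. Rank 8, at chr3:49887002-49903564, lay at 96.5, 122 and 105 in CGG_siTRA, 118, 78.1 and 147 in siTRA, 49.7, 102 and 48.8 in CGG, 65.3, 73.1 and 38.1 in GFP_TRA, and 50.5, 52.1 and 40.0 in CTL. Rank 9, at chr17:18108706-18179802, lay at 134, 117 and 69.0 in CGG_siTRA and 133, 139 and 56.6 in siTRA, and 2 of its CTL libraries, at 82.7 and 82.9, were above the lowest library of both knockdown groups. Rank 16, at chr1:2556366-2563749, lay between 25.2 and 81.0 in CGG_siTRA, between 39.1 and 65.1 in siTRA, and between 15.8 and 43.0 in the other libraries. These members met the rule by their means while their libraries overlapped.

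The remaining members of the first 20 were higher in knockdown cells by ratios between 1.47 and 1.60. Rank 10 (chr1:109494052-109502932) averaged 633 ± 93.6 in CGG_siTRA and 639.8 ± 77.7 in siTRA, against 391 ± 60.1 in CTL (SD, n = 3 each). Rank 11 (chr14:44924319-44978298) averaged 3599.9 ± 90.2 in CGG_siTRA and 4473 ± 594 in siTRA and was nearly level elsewhere, with 2227 ± 130 in CGG, 2247 ± 119 in GFP_TRA and 2263 ± 59.1 in CTL (SD, n = 3 each). Rank 13 (chr1:207043849-207052980) averaged 7285 ± 847 in CGG_siTRA and 8034 ± 1112 in siTRA, against 4049 ± 184 in CGG and 4655 ± 256 in CTL (SD, n = 3 each). Ranks 12, 15 and 20, at chr15:45361126-45402327, chr3:66998307-67011210 and chr1:19882513-19912945, had means of 573, 1283 and 2776 in siTRA and of 304, 729.9 and 1793 in CTL, also without overlap. Rank 17 (chr17:2054290-2063241) was much fainter and still separated, at 75.7, 61.1 and 62.6 in CGG_siTRA and 54.6, 92.4 and 62.5 in siTRA, against a highest other library of 52.1 in GFP_TRA.

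Among the 10 members with the highest lower knockdown mean, 6 had ratios between 1.26 and 1.35. The gene at chr13:48975912-49209779 averaged 17958 ± 2074 in CGG_siTRA and 20525 ± 1533 in siTRA, against 13816 ± 522 in CGG, 13028 ± 591 in GFP_TRA and 13315 ± 476 in CTL (SD, n = 3 each). The gene at chr12:53064316-53079420 averaged 7722 ± 105 in CGG_siTRA and 7357 ± 1175 in siTRA, against 5754 ± 94.3 in CGG and 4547 ± 103 in CTL (SD, n = 3 each). Those at chr9:136006537-136095285, chr1:96721665-96823738 and chr7:32495489-32588721 had CGG_siTRA means of 6213, 6038 and 5971 and CTL means of 4548, 3521 and 4752. None of the 10 overlapped between knockdown and other libraries, those with small ratios included. That is again a description, since the rule used the same contrast.

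Per kilobase of listed exon bins the order of levels changed. On that scale, and among the members named here, the gene at chr4:83535914-83605875 (rank 32) was highest in siTRA with 6481 per kilobase, against 2937 in CTL. Rank 6 followed with 5117 in siTRA and 2230.4 in CTL, and the gene at chr10:110497838-110511544 (rank 72) with 3061 in siTRA and 1562 in CTL. Rank 2 stood at 2042 in siTRA and 798 in CTL, although its sum was close to that of rank 32.

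At the threshold, the 5 members just inside had ratios between 1.252 and 1.258 and lower knockdown means between 81.1 and 5971. The nearest was at chr17:74326231-74355820, with a lower knockdown mean of 81.1 over a highest other mean of 64.8. Just outside, 5 genes had ratios of 1.244 to 1.2496, among them an abundant gene at chr1:172532349-172611833 with 24877 over 19908. Values thus ran on without a gap at the threshold.

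**Figure D2:**
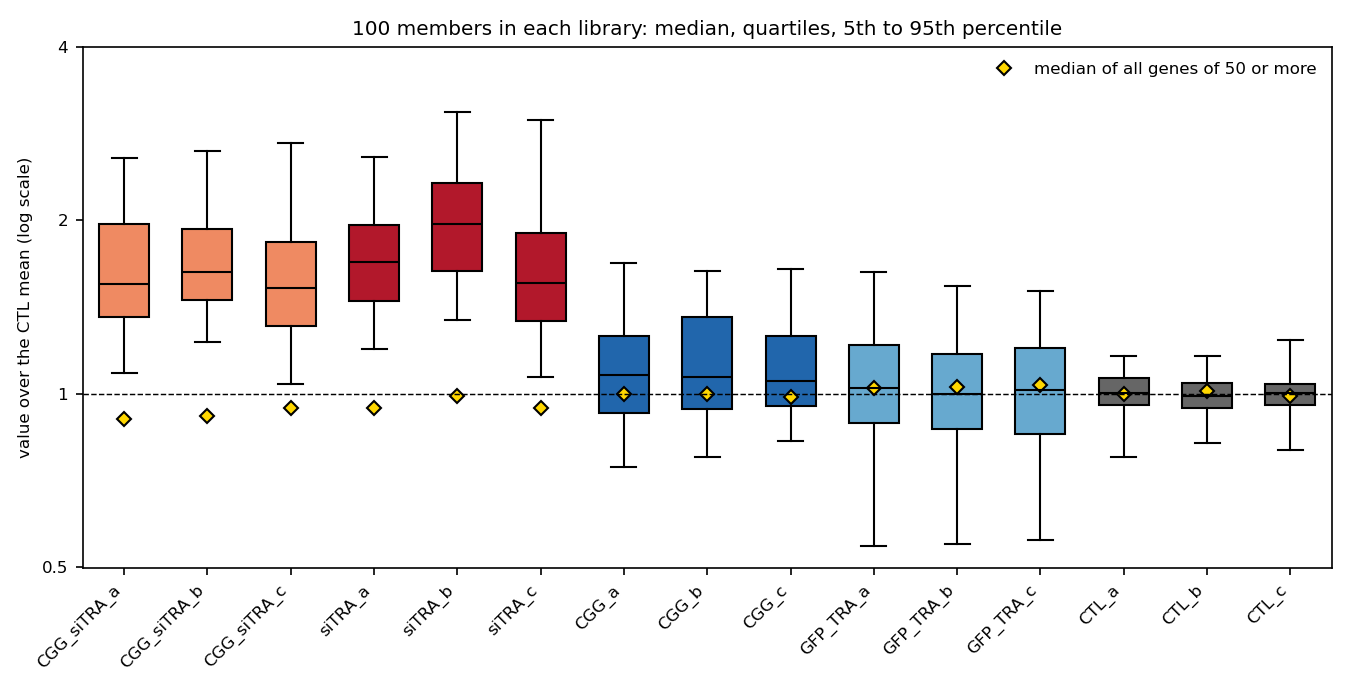
Value of each of the 100 members over its CTL mean (log axis), by library; boxes give the median and quartiles, whiskers the 5th and 95th percentile, and diamonds the median of all genes of 50 or more. Member medians are 1.52 to 1.97 in the 6 knockdown libraries, while the diamonds there lie between 0.90 and 0.99.

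The median member was above its CTL mean in each knockdown library. The rule requires an excess of the group means, so this is a description. Relative to the CTL mean, the median member stood at 1.55, 1.63 and 1.52 in CGG_siTRA libraries a, b and c and at 1.69, 1.97 and 1.56 in siTRA. It stood at 1.08, 1.07 and 1.05 in CGG and between 0.9996 and 1.02 in GFP_TRA. The median of all genes of 50 or more was 0.90, 0.91 and 0.95 in CGG_siTRA and 0.95, 0.99 and 0.95 in siTRA, so the median gene was slightly lower in knockdown cells on the authors' scale while the members were higher. With TMM scaling of the counts, which removes this shift, 201 genes met the rule, all 100 members among them. Library b of siTRA had the highest value of the 6 knockdown libraries in 56 of 100 members and the smallest total, 123599617 reads. Without it the median ratio of the members was 1.33, 99 of the 100 kept a ratio above 1, and 97 genes met the rule, 86 of them members. What sets that library apart was not tested.

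On the authors' scale the siTRA mean was above the CGG_siTRA mean in 78 members and below it in 22. The median of all genes of 50 or more was also slightly lower there, at 0.90 to 0.95 in CGG_siTRA and 0.95 to 0.99 in siTRA. With the TMM scaling of the edgeR fit, CGG_siTRA minus siTRA was below 0 in 59 members and above 0 in 41. Of all features 51.4% were above 0. Outside the knockdowns CGG was the highest group in 50 members, CTL in 28 and GFP_TRA in 22, while CTL was the lowest in 46, GFP_TRA in 29 and CGG in 25. On the log2 scale of the edgeR fit, CGG_siTRA minus CGG ran between 0.42 and 1.295 with a median of 0.61, and siTRA minus CTL between 0.38 and 1.97 with a median of 0.86. At an adjusted p under 0.05 (edgeR) 66 members were higher in CGG_siTRA than in CGG, where 3.37% of all features were higher and 5.23% lower, and 87 were higher in siTRA than in CTL, where 15.6% were higher and 17.9% lower. Nothing is read from these counts, since the same contrasts chose the members. In a bulk sample, more cells with a transcript and more transcript per cell cannot be told apart.

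In most members with several measured exon bins, the excess was present in each of them. Of 884 exon bins with a mean of 10 or more, in 86 members, 877 were higher in the knockdown groups than in the others (99.2%, against 31.1% of all such bins). The margin was 25% or more in 836 bins (94.6%, against 5.52% of all bins), which follows in part from the rule, since the bins make up the sum it used. In 74 members with at least 2 such bins, every bin was above 1 in 67 and every bin reached the 25% margin in 51. In 19 of the 74 a single bin held more than 50% of the excess, and a further 12 members had only 1 such bin. Rank 1 had 10 such bins, at 1.76 to 2.39 times the other groups, and rank 2 had 19, at 1.92 to 2.49 times. The gene at chr4:83535914-83605875 had 17, at 1.39 to 1.89 times.

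**Figure D3:**
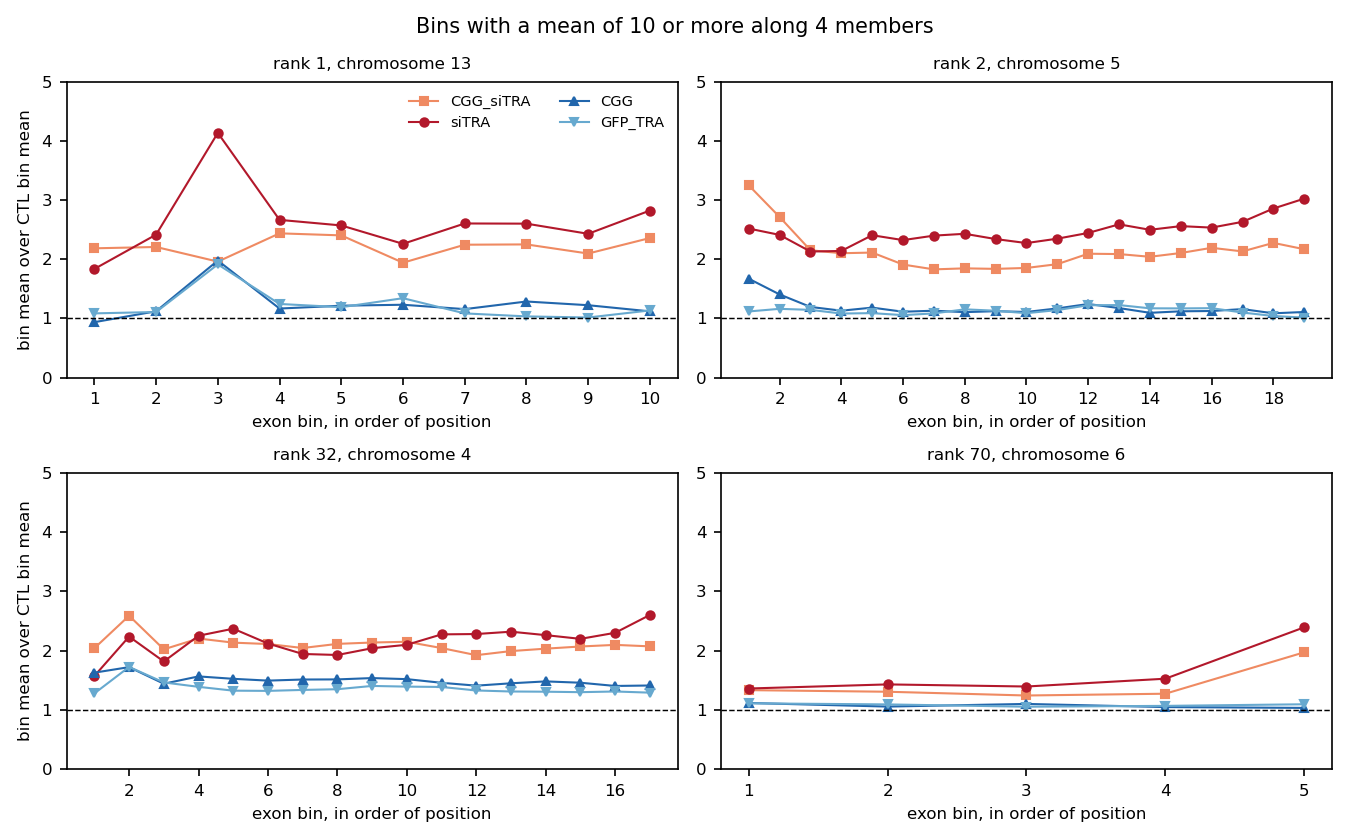
Mean of each exon bin over its CTL mean (linear axis), in order of position, for 4 members and 4 groups. In ranks 1, 2 and 32 the knockdown lines stay above the CGG and GFP_TRA lines in nearly every bin, and in rank 70 they part most in the last bin.

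The next count covers the 74 members with at least 2 bins of a mean of 10 or more. In 3 of them a single bin carried a share of the excess more than 15 percentage points above its share of the level. In the gene at chr6:11094033-11138733 (rank 70) the last bin, chr6:11135812-11138733, held 47.3% of the excess and 19.9% of the level in the other groups. That bin averaged 1368 ± 193 in CGG_siTRA, 1660 ± 224 in siTRA, 717 ± 43.8 in CGG, 759 ± 98.7 in GFP_TRA and 694 ± 25.8 in CTL (SD, n = 3 each). The other 4 bins of the gene were at 1.252 to 1.35 times the other groups, and this one at 2.09 times. In the gene at chr3:38453851-38493142 the bin chr3:38483375-38493142 held 71.4% of the excess and 52.5% of the level, and in the gene at chr9:136006537-136095285 the bin chr9:136006537-136012024 held 61.7% and 44.4%. These 3 bins lie at the 3′ end of their gene and are its widest bin with a mean of 10 or more, at 2922, 9768 and 5488 bases. Members with only 1 such bin were outside this count. Among them, the bin chr17:2056980-2059686 of rank 17 held 74.7% of the excess and 47.7% of the level. The bin chr9:104768863-104769021 of the gene at chr9:104764157-104777457 held 41.1% and 21.1%. Neither of these bins reaches an end of its gene.

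No member was called for the repeat in cells with TRA2A knocked down. Between CGG_siTRA and siTRA, 0 of 100 members passed an adjusted p of 0.05 in the quasi-likelihood test of edgeR, Benjamini-Hochberg adjusted over 17526 features, of which 0.0171% were called higher and 0% lower. The lowest adjusted p of a member was 0.169, at rank 11 with a log2 difference of -0.24 (SE 0.08, edgeR), and 6 members had an unadjusted p under 0.05, against 16.9% of all features. DESeq2 called 1 member, and its share of all features is not given here. The median log2 difference was -0.03 in the members and 0.01 in all features, and the median SE of a member was 0.13. The widest difference, -0.75 (SE 0.39, adjusted p = 0.33, edgeR), was at chr1:800879-810170, where CGG_siTRA lay at 102, 86.4 and 35.9 and siTRA at 101, 234 and 68.3. The calls are few among all features too, and a p that misses the threshold does not show that the groups were alike. The rule used the lower of the CGG_siTRA and siTRA means, so a gene high in siTRA but not in CGG_siTRA, or the reverse, could not enter. The members are thus not a free sample of genes for this comparison. Their counts are given as a description, and no lack of an effect of the repeat is read from them.

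In cells without the siRNA, more members were higher with the repeat than lower. Between CGG and CTL, 17 members were higher and 2 lower at an adjusted p under 0.05 (edgeR), against 9.75% of all features higher and 10.7% lower. The median log2 difference was 0.11 in the members and 0.01 in all features. All 3 group means outside the knockdowns entered the rule as its ceiling, so the members are not a free sample of genes for this comparison either. Fitting CGG and CTL libraries alone called 30 members, 26 of them higher, and taking the highest bin in place of the sum called 12, of which 10 were higher. The share of all features called in these other fits is not given here, so no excess is read from their counts.

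**Figure D4:**
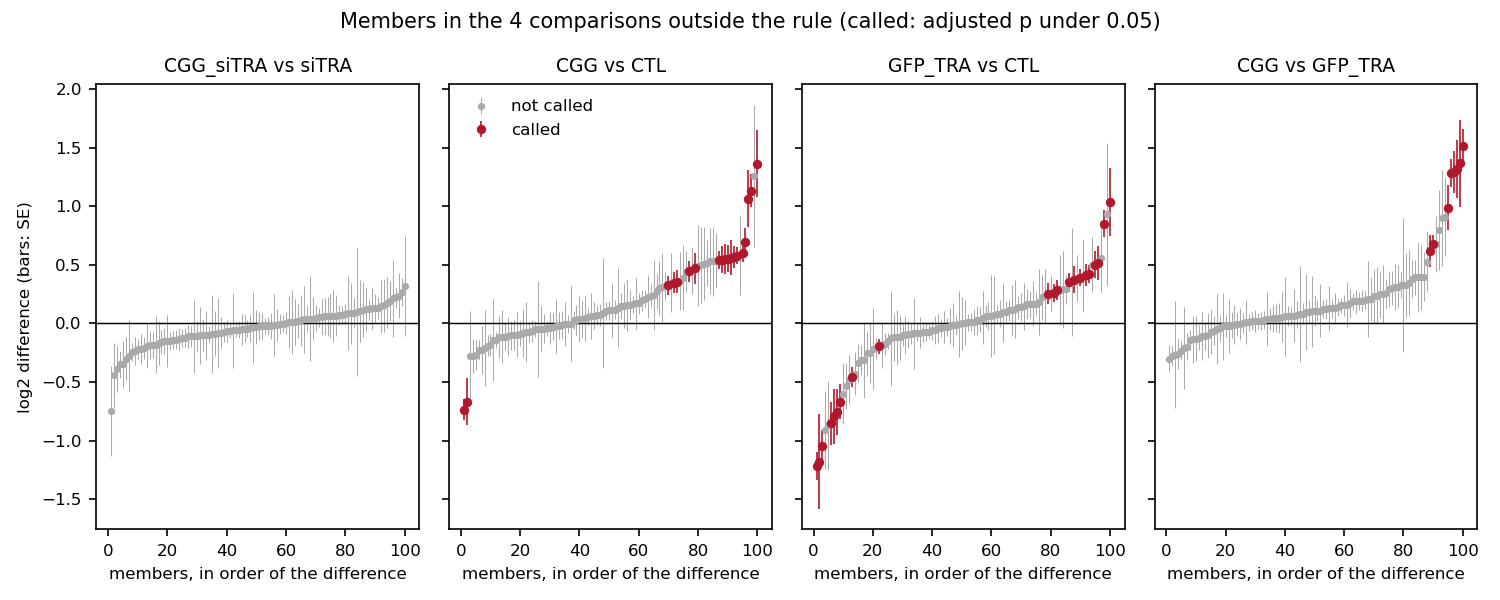
log2 difference with its SE for each member, ordered by size, in the 4 comparisons of groups that the rule did not set against each other; red points passed an adjusted p of 0.05 in edgeR. The first panel has 0 red points, the CGG vs CTL panel 17 above and 2 below 0, the GFP_TRA vs CTL panel 12 above and 9 below, and the CGG vs GFP_TRA panel 8 above.

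The largest rises in CGG were at chr1:85729233-86156943, chr3:185506262-185552613 and chr1:89052319-89065360. The first lay at 133, 158 and 131 in CGG and 53.7, 72.5 and 39.0 in CTL, a log2 difference of 1.36 (SE 0.29, adjusted p = 0.0026, edgeR). The second lay at 490.2, 489 and 444 in CGG and 266, 216 and 175 in CTL, a log2 difference of 1.13 (SE 0.14, adjusted p = 1.93e-05, edgeR). CGG and CTL did not overlap in either gene, and the knockdown groups had still higher means, of 212 in CGG_siTRA and 208 in siTRA for the first and 678 in CGG_siTRA and 749 in siTRA for the second, although knockdown libraries of the first overlapped with CGG. The third lay at 118, 82.7 and 113 in CGG and 38.7, 44.6 and 68.3 in CTL (log2 1.06, SE 0.24, adjusted p = 0.00456, edgeR), and its call was lost with the highest bin in place of the sum (adjusted p = 0.334).

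Abundant members were among those with smaller called rises. The gene at chr4:83535914-83605875 lay at 15711, 14238 and 15178 in CGG and 9959, 10209 and 10389.7 in CTL, a log2 difference of 0.58 (SE 0.08, adjusted p = 2.68e-05, edgeR). At chr10:110497838-110511544 the values were 5824, 6341 and 6198 in CGG and 4119.5, 4052 and 4082 in CTL, a log2 difference of 0.60 (SE 0.08, adjusted p = 2.54e-05, edgeR). Neither pair of groups overlapped. The other called rises among named members were 0.70 at chr5:173056352-173139284, 0.56 at chr4:158769138-158908049, 0.56 at chr11:118226690-118252350, 0.55 at chr6:122789049-122809717, 0.55 at chr1:154405193-154469450, 0.54 at rank 7, 0.54 at chr1:70411272-70439851, 0.47 at chr19:6677841-6720682, 0.44 at rank 6 and 0.36 at chr12:53064316-53079420, and a further 2 called members have no listed position. Of these, the rise at chr11:118226690-118252350 lost its call without CGG library b, without CTL library a or c, or with its highest bin (adjusted p = 0.0541 to 0.0974, edgeR).

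Both members that fell in CGG had CTL as their highest group outside the knockdowns. The gene at chr3:38453851-38493142 lay at 1518, 1409 and 1485 in CGG and 2613, 2361 and 2458 in CTL, a log2 difference of -0.74 (SE 0.09, adjusted p = 1.16e-05, edgeR). It averaged 3362 ± 354 in CGG_siTRA, 3367 ± 300 in siTRA and 1839.7 ± 56.4 in GFP_TRA (SD, n = 3 each), so both groups without knockdown that were treated lay below CTL and both knockdown groups above it. The gene at chr14:75278774-75282230 lay at 1709, 1616 and 1829 in CGG and 3007, 2406 and 2869.6 in CTL (log2 -0.67, SE 0.20, adjusted p = 0.024, edgeR). Its siTRA libraries were widely spread, at 6736, 5338 and 2961, and its call was lost without CGG library a or b or CTL library a or c, and with its highest bin (adjusted p = 0.0684 to 0.0875, edgeR).

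With TRA2A overexpressed, members were called on both sides of CTL. Between GFP_TRA and CTL, 9 members were lower and 12 higher at an adjusted p under 0.05 (edgeR), against 13% and 11.9% of all features, and the median log2 difference was 0.00 in the members and 0.01 in all features. Both group means entered the rule as part of its ceiling, so the members are not a free sample of genes here either. This comparison shares the CTL libraries with that of CGG: 11 members were called higher in both, 1 lower in both, and 1 higher in CGG and lower in GFP_TRA.

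Single members were lower in GFP_TRA than in CTL, and their excess in the knockdowns is what the rule chose. At chr3:151294086-151316952 the value was 140.4, 143 and 131 in GFP_TRA and 296, 339 and 307 in CTL, a log2 difference of -1.21 (SE 0.12, adjusted p = 1.26e-06, edgeR). At chr19:6677841-6720682 it was 175, 214 and 189.6 in GFP_TRA and 395, 429 and 348 in CTL, a log2 difference of -1.05 (SE 0.14, adjusted p = 3.62e-05, edgeR). In both genes the GFP_TRA libraries lay below every other library measured here, and the knockdown libraries above every other. The first averaged 443 ± 14.1 in CGG_siTRA and 451 ± 29.9 in siTRA, and the second 727 ± 59.2 in CGG_siTRA and 795 ± 167 in siTRA (SD, n = 3 each). With the highest bin in place of the sum, the second lost its call (adjusted p = 0.585).

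The gene at chr3:9866714-9880254 lay at 92.6, 147 and 142 in GFP_TRA and 262, 209 and 205 in CTL (log2 -0.85, SE 0.18, adjusted p = 0.00256, edgeR). Rank 14, at chr4:99636529-99654648, lay at 70.2, 44.8 and 67.3 in GFP_TRA and 111, 86.5 and 104 in CTL (log2 -0.76, SE 0.19, adjusted p = 0.00857, edgeR), and its adjusted p was 0.0515 without GFP_TRA library b. Rank 3 lay at 412, 327 and 422 in GFP_TRA and 603, 619 and 584 in CTL (log2 -0.67, SE 0.15, adjusted p = 0.00327, edgeR). These genes too had lower values in each GFP_TRA library than in any CTL library. Falls with a larger SE were at rank 9, with a log2 difference of -1.18 (SE 0.40, adjusted p = 0.0407, edgeR), and at chr3:57293699-57544341, with -0.79 (SE 0.23, adjusted p = 0.0194, edgeR). The call at rank 9 was lost without any GFP_TRA library or without CTL library a or c, and that at chr3:57293699-57544341 without GFP_TRA library b or c or CTL library a or c (adjusted p = 0.0579 to 0.153 over these fits, edgeR). Rank 9 also lost its call in limma (adjusted p = 0.056 and 0.0564).

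Other members were higher in GFP_TRA than in CTL, their excess in the knockdowns again being what the rule chose. The gene at chr1:154405193-154469450 lay at 2641, 2343 and 2657 in GFP_TRA and 1304, 1594 and 1252 in CTL, a log2 difference of 0.85 (SE 0.11, adjusted p = 3.86e-05, edgeR). It averaged 3437 ± 202 in CGG_siTRA, 3471 ± 459 in siTRA and 2006 ± 133 in CGG (SD, n = 3 each), so all 4 treated groups were above CTL. The gene at chr1:85729233-86156943 gave 1.03 (SE 0.29, adjusted p = 0.015, edgeR) and that at chr3:185506262-185552613 gave 0.52 (SE 0.14, adjusted p = 0.0142, edgeR). Both lost the call without CTL library c (adjusted p = 0.0783 and 0.0841, edgeR), the first also without GFP_TRA library c or CTL library a, and the second also with its highest bin (adjusted p = 0.0766).

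**Figure D5:**
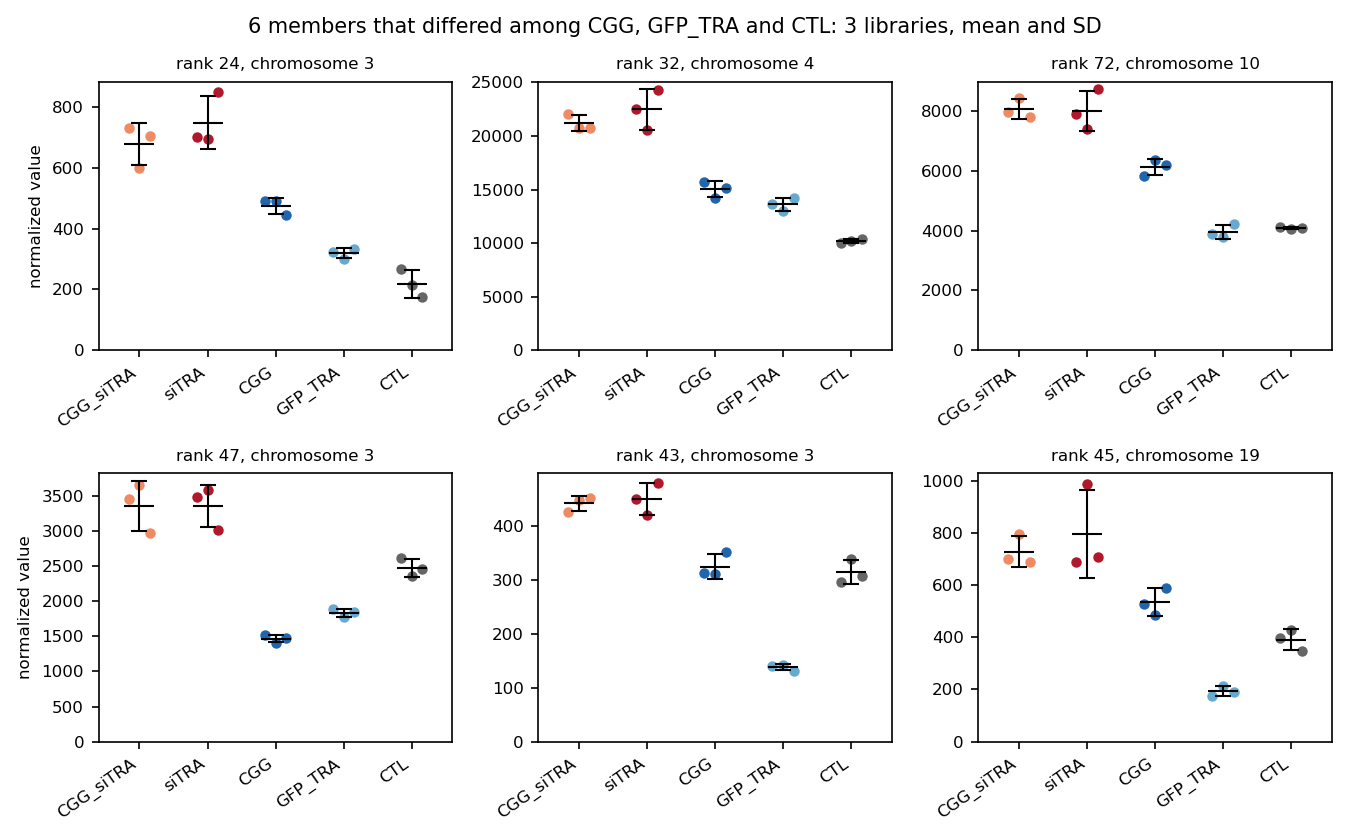
Normalized value (linear axis from 0) of 6 members in the 3 libraries of each group; points are libraries and bars are mean and SD. Ranks 24 and 32 step down over CGG, GFP_TRA and CTL, rank 72 is raised in CGG alone of the groups without knockdown, rank 47 is lower in CGG than in CTL, and ranks 43 and 45 are lowest in GFP_TRA.

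Set directly against each other, CGG was higher than GFP_TRA in 8 members and lower in 0 (edgeR, adjusted p under 0.05), against 4.40% and 2.10% of all features. Both group means entered the rule as part of its ceiling, so these counts are given as a description. The unadjusted p was under 0.05 in 23 members and in 20.3% of all features. The largest difference was at chr19:6677841-6720682, where CGG lay at 528, 486 and 589 and GFP_TRA at 175, 214 and 189.6, a log2 difference of 1.52 (SE 0.14, adjusted p = 3.61e-06, edgeR). Its call was lost with the highest bin (adjusted p = 0.323). The genes at chr3:9866714-9880254 and chr3:151294086-151316952 gave 1.29 (SE 0.18, adjusted p = 0.000346, edgeR) and 1.28 (SE 0.12, adjusted p = 3.91e-06, edgeR). At chr10:110497838-110511544 the values were 5824, 6341 and 6198 in CGG and 3877, 3774 and 4230.2 in GFP_TRA, a log2 difference of 0.67 (SE 0.08, adjusted p = 3.85e-05, edgeR). These 4 genes did not overlap between the groups. The remaining called members were at chr1:89052319-89065360 (1.31), rank 14 (0.99), chr3:185506262-185552613 (0.62) and chr11:11963106-12009330. With its highest bin the first of these lost its call (adjusted p = 0.335), and the gene at chr3:185506262-185552613 lost it with its highest bin and without CGG library a or b or GFP_TRA library b (adjusted p = 0.0512 to 0.236, edgeR). The call at chr11:11963106-12009330, with 26.1, 59.7 and 86.2 in CGG and 25.4, 21.9 and 22.4 in GFP_TRA (log2 1.36, SE 0.37, adjusted p = 0.0353, edgeR), was lost in 5 of the 6 fits that left out a library. It was also lost with its highest bin (adjusted p = 0.456, edgeR) and in limma (adjusted p = 0.0607 and 0.0613). Fitting only the CGG and GFP_TRA libraries called 16 members, 13 of them higher, and the highest bin of each gene called 5, again without a share of all features beside them.

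The difference between cells with and without the repeat was also set, in knockdown cells, against that in cells without the siRNA, a comparison added after seeing the data. It is built from 4 of the group means that chose the members, so its values are given as a description and its counts support nothing about the members. The first minus the second was negative in 74 members and positive in 26. At an adjusted p under 0.05 it was negative in 14 and positive in 2 (edgeR), against 7.47% and 8.93% of all features, with a median log2 of -0.20 in the members and 0.00 in all features. The 16 calls among 100 members are close to the share of all features called. At chr3:185506262-185552613 it was -1.21 (SE 0.20, adjusted p = 0.000452, edgeR), the difference between cells with and without the repeat being -0.08 in knockdown cells and 1.13 without the siRNA. At rank 7 it was -0.69 (SE 0.11, adjusted p = 0.000337, edgeR), from -0.15 in knockdown cells and 0.54 without the siRNA. At chr3:38453851-38493142 it was 0.81 (SE 0.12, adjusted p = 0.000278, edgeR), from 0.07 in knockdown cells and -0.74 without the siRNA. The count fell to 9 or 10 members without CGG_siTRA library b, CGG library a or c, or CTL library a.

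Few bins of the members, as few of all bins, were called for relative use in the comparisons outside the rule. With edgeR's diffSpliceDGE over 267439 bins, 0 of 989 tested bins in 81 members passed an adjusted p of 0.05 between CGG_siTRA and siTRA (0.0512% of all bins), 2 between CGG and CTL (0.248%) and 3 between GFP_TRA and CTL (0.362%). At an unadjusted p under 0.05 (diffSpliceDGE) these counts were 62, 19 and 29, against 5.33%, 3.54% and 3.81% of all bins. With limma's diffSplice 17, 10 and 14 were called, and the share of all bins in that fit is not given here. Between CGG and CTL the bin chr4:158806094-158806423 lay at 7.11, 6.89 and 10.6 in CGG and at 0 in all 3 CTL libraries (adjusted p = 0.00218, edgeR's diffSpliceDGE), and it stood at 4.88, 6.40 and 7.85 in GFP_TRA. The bin chr6:117544270-117544527 was relatively lower in CGG, at 0, 1.15 and 1.63, against 6.44, 11.2 and 10.7 in CTL (log2 of relative use -2.03, adjusted p = 0.0266, diffSpliceDGE). Both rest on few reads, and the second passed the filter of 10 reads largely through CTL, the group where it was higher. When bins needed 20 reads in 3 libraries, 0 member bins were called between CGG and CTL. That filter left both bins untested, so it does not bear on their calls. The first lost its call without CTL library b or c and the second without any CGG library or CTL library b or c (adjusted p = 0.0531 to 0.233, diffSpliceDGE).

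The neighbouring bins chr17:55421798-55421924 and chr17:55421925-55421992, at the 5′ end of the gene at chr17:55392613-55421992, were relatively higher in GFP_TRA than in CTL. The outer bin lay at 18.5, 32.9 and 11.2 in GFP_TRA and 4.30, 4.65 and 5.85 in CTL (log2 of relative use 1.55, adjusted p = 0.000902, edgeR's diffSpliceDGE). The inner bin lay at 84.8, 102 and 66.2 in GFP_TRA and 49.4, 54.9 and 55.6 in CTL (log2 of relative use 0.58, adjusted p = 0.0277, edgeR's diffSpliceDGE). Values above CTL were not particular to GFP_TRA. The outer bin averaged 22.0 in CGG_siTRA, 17.9 in siTRA and 13.4 in CGG, and the inner 111, 98.2 and 81.0. Between CGG and CTL diffSpliceDGE called neither bin, while the authors' DEXSeq called both (adjusted p = 0.0492 outer and 0.00367 inner). The authors' DEXSeq also called both in CGG_siTRA vs CTL. The gene's sum was meanwhile lower in GFP_TRA, at 1879 ± 25.9 against 2109.9 ± 78.9 in CTL (SD, n = 3 each). Without GFP_TRA library b neither bin was called (adjusted p = 0.333 for the outer and 0.857 for the inner, edgeR).

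In the authors' deposited DEXSeq tables, bins of members with an adjusted p under 0.05 numbered 4 of 1161 in CGG vs CTL (2% of all bins) and 10 of 1344 in CTL vs GFP_TRA (1.32%). For the comparisons that chose the members the authors' deposited tables list 22 of 992 in CGG_siTRA vs CGG (3.34%), 21 of 1026 in CGG_siTRA vs CTL (3.87%), 10 of 1152 in CTL vs SiTRA (1.83%) and 8 of 1464 in GFP_TRA vs siTRA (0.595%). The last bin of the gene at chr6:11094033-11138733 is in 4 of these authors' deposited tables, with an adjusted p of 1.47e-08 and a log2 of 0.61 in CGG_siTRA vs CGG. The authors' deposited EventPointer tables list 10 splicing events in 9 members. By the authors' deposited EventPointer results, 1 of these has a p-value under 0.05 in CGGsiTRA vs siTRA (6.31% of all 6311 events), a cassette exon at chr5:113004077-113010756 in rank 2 with p = 0.0457 and a change in the fraction spliced in of -0.0057. The authors' deposited tables list 0 of 10 in CGG vs CTL (7.68% of all events), in GFPTRA vs CTL (8.18%), in CGGTRA vs CGG (8.13%) and in CGGTRA vs CGGsiTRA (8.87%).

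The 93 members with a listed position lay on 21 chromosomes, 51 on the plus and 42 on the minus strand. Chromosome 1 held 13, chromosome 3 held 11 and chromosome 12 held 8, which is 14%, 11.8% and 8.60% of the members, against 10.2%, 5.71% and 5.30% of all genes of 50 or more. Members had a median of 18 listed bins, 5221 listed bases and a span of 29.4 kb, against 24 bins, 4939 bases and 34.2 kb in all genes of 50 or more. In 4 cases the next member lay within 1 Mb. The closest pair, at chr12:49064685-49070025 and chr12:49096551-49110886 on the minus strand, was 26.5 kb apart with ratios of 1.41 and 1.39. The first of them averaged 613 ± 118 in CGG_siTRA, 533 ± 27.5 in siTRA and 378 ± 19.3 in CTL, and the second 3822 ± 281 in CGG_siTRA, 3851 ± 342 in siTRA and 2574 ± 180 in CTL (SD, n = 3 each). In both, all knockdown libraries lay above the others.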

How the data were processed

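Total RNA of COS-7 cells was sequenced after removal of ribosomal RNA, per the labels' protocols. The submitters' processing notes name cutadapt 1.14, STAR 2.5.2 and GRCh38.p10, a human build, so monkey reads that differ from the human sequence can be lost. The counting tool's strand setting is not given in the sources used here.

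The authors deposited a normalized signal per exon bin for 15 libraries and DEXSeq tables with raw counts per bin, p-values and log2 fold changes, per the file headers. The signal is a whole read number (tolerance 0.1) times a factor for each library in 100.0% of values, and the counts in the authors' tables differed in 0 bins. For each splicing event the authors' EventPointer tables give a p-value and a change in the fraction spliced in, whose direction is not stated.

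Bins were summed to 52560 single gene IDs, leaving out 2209 groups of overlapping genes. Counts were tested with edgeR 4.0.16 in R 4.3.3 (TMM, quasi-likelihood, all 15 libraries in 1 fit of 5 groups, Benjamini-Hochberg) over 17526 features, groups included, with a normalized value of 10 or more in at least 3 libraries. Bin use was tested with diffSpliceDGE on bins of 10 or more reads in 3 libraries. Both scripts were tested on simulated data. DESeq2 1.42.0 and limma 3.58.1 were alternatives.

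Members, lists and comparisons were chosen with earlier results of these data known. Members named are the 20 with the largest ratio, the 10 with the highest lower knockdown mean, the 5 on each side of the threshold, at most 10 called per comparison, and those with a called bin; others named, such as pairs of neighbours and members with an uneven bin, were chosen after their values were seen. Of the gene IDs 0 matched a name in the reference, so the planned gene lists, cell type markers and promoter words could not be applied, and no sequence is printed.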

Additional observations from a re-analysis of the deposited data

Results flagged for a closer look

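The difference between cells with and without the CGG repeat was called as unequal in knockdown cells and in cells without the siRNA for 16 of 100 members, by the edgeR test of that difference (adjusted p under 0.05). Of all features 7.47% were called negative and 8.93% positive, so the number of members called is close to the background, and the contrast reuses group means that chose the members. Among these, the repeat's log2 difference in knockdown cells minus that in cells without the siRNA was -1.28 at chr1:85729233-86156943, -1.21 at chr3:185506262-185552613, -1.05 at chr1:89052319-89065360, -0.73 at chr6:122789049-122809717 and -0.72 at chr5:173056352-173139284. It was -0.69 at chr2:189560579-189583420, -0.68 at chr4:158769138-158908049, -0.60 at chr4:83535914-83605875 and -0.57 at chr1:70411272-70439851, and 0.81 at chr3:38453851-38493142. The calls at chr1:85729233-86156943 and chr1:89052319-89065360 were lost in 9 and 10 of the alternatives tried, that at chr1:70411272-70439851 in 6 (adjusted p = 0.0515 to 0.0799, edgeR), and that at chr6:122789049-122809717 with its highest bin (adjusted p = 0.15, edgeR).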

How the results depend on the processing

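The number of genes that met the rule was 201 with TMM-scaled counts, 15 with a ratio of 1.5, 189 with a mean of 10 or more, and 96 to 122 without 1 library. It was 86 with the highest bin of each gene, of which 61 were members, and 102 with the median of the 3 libraries, of which 74 were members. The 100 members kept a median ratio between 1.33 and 1.37 without 1 library. Between CGG_siTRA and siTRA the number of members called was 1 with no filter on low counts, 1 with DESeq2, and 0 to 1 without 1 library (1 without CGG_siTRA library a). For CGG vs CTL it was 30 with only the groups compared, 12 with the highest bin and 15 to 20 without 1 library. For GFP_TRA vs CTL it was 14 to 18 without 1 library, and for CGG vs GFP_TRA 16 with only the groups compared, 5 with the highest bin and 6 to 7 without 1 library. For the difference of the repeat's effect it was 9 with the highest bin and 9 to 18 without 1 library. Bins called were 17, 10 and 14 with limma's diffSplice for CGG_siTRA vs siTRA, CGG vs CTL and GFP_TRA vs CTL, 0 with the filter of 20 reads for CGG vs CTL, and 0 to 5, 0 to 2 and 0 to 3 without 1 library (5 without siTRA library c, 0 without CTL library b or c, and 0 without GFP_TRA library b, in the same order). The filter of 20 reads left the bins called between CGG and CTL untested, so those calls could not be kept under it. Of the values for single members and bins under an alternative, 85 of 586 lost the call and none reversed; the cause was not tested. Shares of all features or bins called under these other settings are not given here, so their counts are not set against a background. No paired analysis was possible because the columns carry no replicate number of the labels. Counts of under 100 reads and 3 libraries a group limit the fainter members.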
